A study of Mus musculus with 6 samples.

Results

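The genes of fatty acid uptake and oxidation were followed in mouse hearts at E10.5, the midgestation stage at which the looped heart is forming its chambers. The set holds 33 genes, chosen by symbol for their place in the pathway, by a rule that uses no measured value but was written with earlier results of these data known, out of 23125 named entries of the expression table. Each of the 33 was found in a single entry and all 33 were tested. RNA came from 6 hearts, each taken from its own embryo and sequenced. Casz1 encodes a zinc finger transcription factor. In the 3 mutant hearts both of its alleles were floxed, and Cre recombinase sat at 1 of the Nkx2-5 alleles (Nkx2-5Cre/+,Casz1f/f). The 3 control hearts had 1 floxed Casz1 allele and no Cre (Nkx2-5+/+,Casz1f/+). All embryos were of C57BL/6 background and all carried at least 1 floxed Casz1 allele. Nkx2-5 marks the cardiac lineage, so the deletion is limited to cells in which that locus drives Cre, and only the mutants have an altered Nkx2-5 allele. The question put by the design is which heart genes differ when Casz1 is mutated. Loss of Casz1, the altered Nkx2-5 allele and Cre occur together in the mutants, so their effects cannot be told apart here.

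Heart muscle takes up fatty acids through surface transporters, ties them to coenzyme A and carries them into mitochondria on carnitine. There the acyl chain is shortened in repeated cycles of beta oxidation, and the electrons pass through flavoproteins to the respiratory chain. Nuclear receptors of the PPAR and ERR families, with the PGC1 coactivators, are the known transcriptional regulators of this pathway. The adult heart draws most of its energy from fatty acids, while the embryonic heart is known for its reliance on glucose and lactate until around birth.

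Levels are given as FPKM, the number of sequenced fragments after correction for transcript length and sequencing depth, and every FPKM, p and q is from the authors' deposited table. That table gives 1 pooled value per genotype, so values of single hearts, their spread and the depth of each library are unknown here. Log2 fold changes are mutant over control, and their standard error (SE) is the one implied by the authors' test statistic. Casz1 read 4.68 FPKM in mutant hearts and 6.61 FPKM in control hearts in the authors' deposited table (log2 fold change -0.50, SE 0.306, p = 0.104). The labels do not name the floxed exons, so a value for the whole gene does not check the deletion. Nkx2-5 read 82.9 FPKM in mutant hearts and 143.0 FPKM in control hearts (log2 fold change -0.79, SE 0.295, p = 0.00755 and q = 0.536 in the authors' deposited table). The 10 cardiomyocyte markers with a usable value summed to 21241 FPKM in mutant hearts and 20632 FPKM in control hearts, so the defining markers of heart muscle were abundant in both. In whole hearts, fewer cells of a type and less RNA per cell cannot be told apart.

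Of the 33 genes, 0 were called higher and 0 were called lower in mutant hearts at the authors' q under 0.05. Over all 15387 tested entries 0.422% were called in either direction, 0.305% higher and 0.117% lower, so calls were rare across the whole table. An unadjusted p under 0.05 was reached by 0 of the 33 genes in the authors' deposited table, against 3.17% of all tested entries, 1.99% higher and 1.18% lower. The lowest p was that of Esrrb, at 0.0912, and all 33 genes had q = 1.00. The mutant FPKM was the lower of the pair for 27 of the 33 genes (81.8%), against 54.6% of all tested entries. All these readings come from the same pooled hearts, so the genes are not independent of each other. The shares were not compared by a test, here or for the single roles below. The size of the difference was small, with a median log2 fold change of -0.09 over the 33 genes and of -0.02 over all 15301 tested entries with a finite fold. The 33 fold changes ran from -0.76 to 0.37, and 27 of them were under 0.3 in size.

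**Figure D1:**
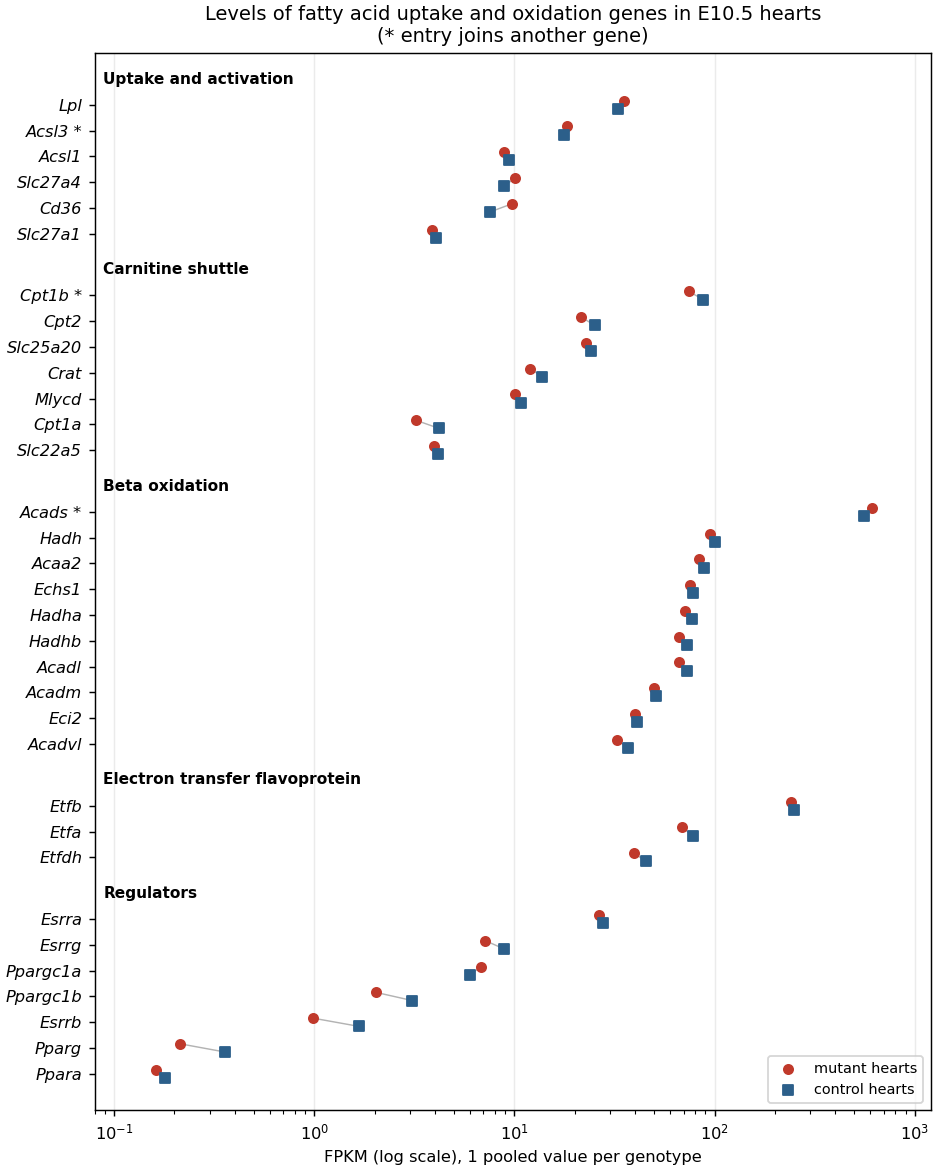
FPKM of each of the 33 genes (horizontal log axis) in mutant hearts (circles, drawn just above) and control hearts (squares, just below), grouped by role and ordered by level. Each symbol is 1 pooled value with no error. Beta oxidation and flavoprotein genes lie between 32.4 and 613 FPKM, and the top value is the joined entry of Acads in mutant hearts. The highest with an entry of its own is Etfb, at 249 FPKM in control hearts. The PPAR genes of the set lie under 1 FPKM in both genotypes.

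The regulatory sequence before the gene start is shown for 5 genes whose levels are compared below as partners or as a known receptor target. RefSeq start windows in GRCm38.p6 were found for 28 of the 33 genes, in 37 windows, and the 250 bases before each start were searched on both strands. Hadha and Hadhb encode the alpha and beta subunits of the mitochondrial trifunctional protein, which carries out the last steps of each cycle on long chains. They lie head to head, with 272 bases between their starts, so a single stretch serves as the window of both. In the sequence below, chr5:30155003-30155252 on the plus strand, read towards Hadhb, capitals mark the 228 bases that also lie in the window of Hadha.

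Hadhb and Hadha: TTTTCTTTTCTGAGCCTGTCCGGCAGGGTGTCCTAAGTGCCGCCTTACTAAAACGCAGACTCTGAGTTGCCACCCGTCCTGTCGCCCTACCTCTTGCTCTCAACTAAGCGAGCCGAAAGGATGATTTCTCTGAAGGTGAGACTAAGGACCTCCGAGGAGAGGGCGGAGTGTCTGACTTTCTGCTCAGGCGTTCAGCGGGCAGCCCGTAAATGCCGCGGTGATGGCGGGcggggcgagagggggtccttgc

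Acadm, the medium-chain acyl-CoA dehydrogenase, is a textbook target of ERR and PPAR receptors. Its window, chr3:153944644-153944893 on the minus strand, was the only 1 of the 37 to hold AAGGTCA, an element of the type bound by ERR receptors. Capitals mark the match, which is on the opposite strand and reads TGACCTT. This element was present in 2.70% of the windows of the set and in 4.08% of all 32851 windows. The direct repeat of AGGTCA, with any 1 base between the copies, a type of element bound by PPAR with RXR, was in 0 of the 37 windows and in 11 of all windows.

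Acadm: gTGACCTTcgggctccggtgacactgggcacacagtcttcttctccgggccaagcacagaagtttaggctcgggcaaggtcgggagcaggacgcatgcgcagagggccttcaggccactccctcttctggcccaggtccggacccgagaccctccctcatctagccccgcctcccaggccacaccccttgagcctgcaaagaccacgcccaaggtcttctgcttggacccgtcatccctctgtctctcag

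Etfa and Etfb encode the subunits of the electron transfer flavoprotein and differ in level. Capitals mark CCAAT, a promoter element bound by the factor NF-Y, or its reverse complement, which reads ATTGG. It occurred at 2 places in each, in chr9:55512244-55512493 on the minus strand for Etfa and in chr7:43443822-43444071 on the plus strand for Etfb. CCAAT was in 43.2% of the windows of the set and in 33.8% of all windows. GGGCGG, the GC box, was in 62.2% of the windows of the set and in 32.7% of all windows. All windows were taken without regard to expression in these hearts, and a gene with several windows counts more than once. The shares of windows were not compared by a test.

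Etfa: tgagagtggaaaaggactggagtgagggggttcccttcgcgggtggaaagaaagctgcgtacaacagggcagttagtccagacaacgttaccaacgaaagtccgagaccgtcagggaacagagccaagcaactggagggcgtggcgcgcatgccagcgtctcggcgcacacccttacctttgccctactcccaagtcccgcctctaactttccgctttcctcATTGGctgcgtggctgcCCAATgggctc

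Etfb: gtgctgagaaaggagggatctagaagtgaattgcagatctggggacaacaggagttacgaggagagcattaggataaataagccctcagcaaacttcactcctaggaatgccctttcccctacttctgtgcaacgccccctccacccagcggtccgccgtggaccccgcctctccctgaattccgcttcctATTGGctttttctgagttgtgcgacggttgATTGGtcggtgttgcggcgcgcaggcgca

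These are matches of letters and describe the windows only.

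Fatty acid uptake and activation was the role in which most genes read higher in mutant hearts, 4 of 6, with 0 called. Lpl, the lipoprotein lipase that frees fatty acids from circulating lipoproteins, was the highest of them at 35.3 FPKM in mutant hearts and 32.8 FPKM in control hearts. Cd36, the membrane transporter of long-chain fatty acids, read 9.74 FPKM in mutant hearts and 7.53 FPKM in control hearts. Its log2 fold change of 0.37 was the largest positive value of the set, with a 95% interval of -0.29 to 1.03 and p = 0.272 in the authors' deposited table. The fatty acid transport protein Slc27a4 read 10.04 FPKM in mutant and 8.90 FPKM in control hearts. Its relative Slc27a1, the form known from adult muscle and fat, read 3.86 FPKM in mutant and 4.04 FPKM in control hearts. Slc27a4 was thus above Slc27a1 in both genotypes, 2.60-fold in mutant and 2.20-fold in control hearts.

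Acyl-CoA synthetases attach coenzyme A to the fatty acid. Acsl1, the main form of adult heart, read 8.88 FPKM in mutant hearts and 9.43 FPKM in control hearts. The entry of Acsl3 read 18.4 FPKM in mutant hearts and 17.7 FPKM in control hearts, but it joins Acsl3 with Utp14b, which lies inside it, and the reads of these genes cannot be told apart. All 6 log2 fold changes of the role lay between -0.09 and 0.37, and their median was 0.08. Lpl and Cd36 are also expressed by macrophages, and Cd36 by endothelium. In the macrophage list, 6 of 7 tested markers read lower in mutant hearts, and the listed levels summed to 5.72 FPKM in mutant and 21.3 FPKM in control hearts. Most of the control sum was the lysozyme Lyz2, at 1.91 FPKM in mutant and 16.9 FPKM in control hearts, the 1 called member (log2 fold change -3.14, q = 1.11e-09 in the authors' deposited table). Over all tested entries 0.117% were called lower. The other 6 tested markers were not called, with log2 fold changes from -0.76 to 0.32, so the drop of the sum is mainly that of Lyz2. The part of these cells in the values of Lpl and Cd36 was not tested.

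The carnitine shuttle genes all read lower in mutant hearts, 7 of 7, and 0 were called. Carnitine palmitoyltransferase 1 on the outer mitochondrial membrane is the rate-setting step of entry, and it has a liver form, Cpt1a, and a muscle form, Cpt1b. Cpt1a read 3.21 FPKM in mutant hearts and 4.21 FPKM in control hearts, 76.4% of the control level (log2 fold change -0.39, SE 0.327, 95% interval -1.03 to 0.25, p = 0.236 in the authors' deposited table). The entry of Cpt1b read 74.4 FPKM in mutant hearts and 87.7 FPKM in control hearts (log2 fold change -0.24, 95% interval -0.88 to 0.40). That entry spans chromosome 15 from 89416405 to 89429927 in mm10 and joins Cpt1b with the neighbouring choline kinase gene Chkb and Gm44502, a non-coding RNA annotated across both. The 23.1-fold excess of the Cpt1b entry over Cpt1a in mutant hearts, and 20.9-fold in control hearts, is thus an excess of the joined entry, in which reads of Cpt1b and Chkb cannot be told apart.

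Behind this step the levels were intermediate. Cpt2, the transferase of the inner membrane, read 21.6 FPKM in mutant and 25.2 FPKM in control hearts. Slc25a20, the carnitine-acylcarnitine carrier between both transferases, read 22.7 FPKM in mutant and 24.0 FPKM in control hearts. Crat, the carnitine acetyltransferase, read 12.01 FPKM in mutant and 13.8 FPKM in control hearts. These 3 steps had log2 fold changes of -0.23, -0.08 and -0.20, each smaller than its SE. Mlycd, which breaks down malonyl-CoA, the inhibitor of carnitine palmitoyltransferase 1, read 10.1 FPKM in mutant and 10.8 FPKM in control hearts. Slc22a5, the carnitine importer of the cell surface, read 3.94 FPKM in mutant and 4.16 FPKM in control hearts. The role had a median log2 fold change of -0.20, and of -0.15 without the joined entry of Cpt1b.

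**Figure D2:**
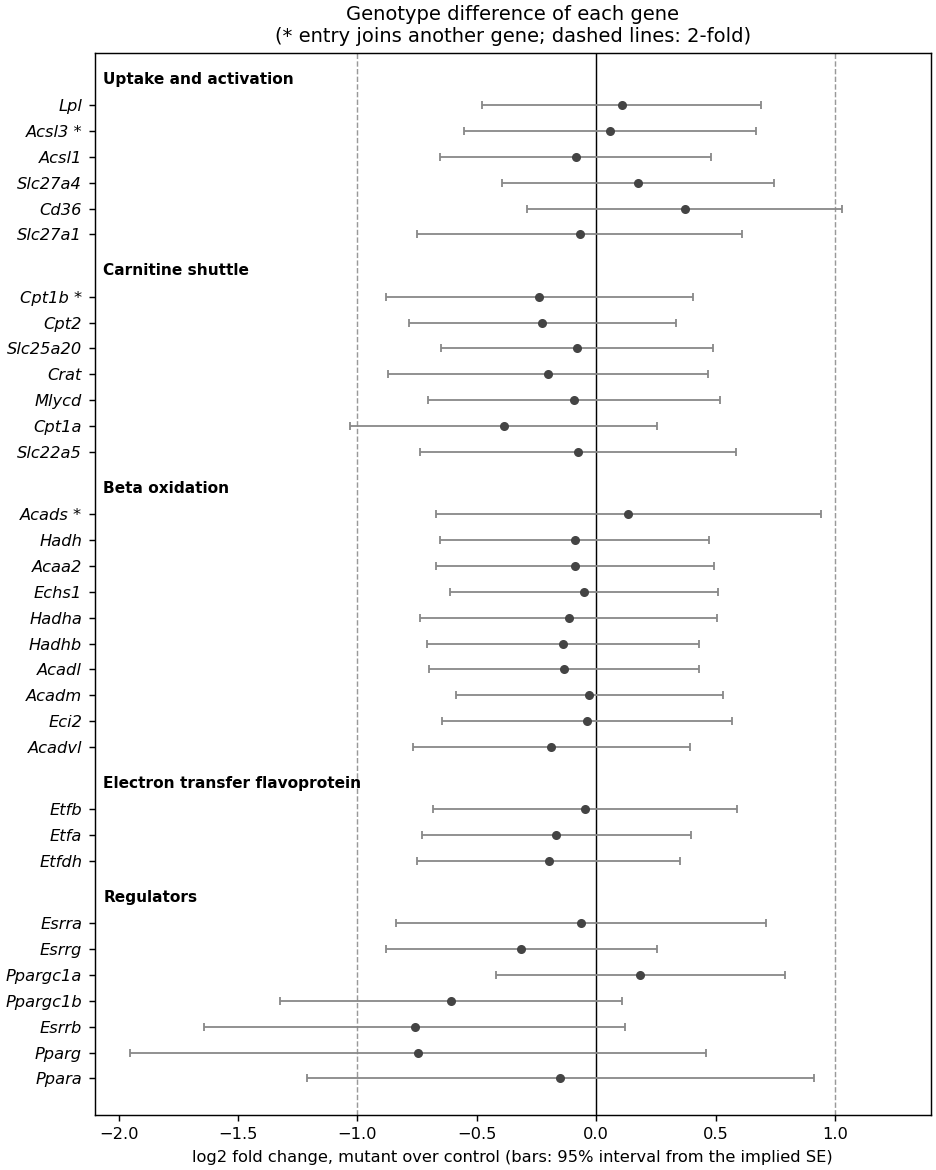
Log2 fold change (mutant over control, horizontal axis) of each of the 33 genes with its 95% interval (bars), by role. The solid line is no difference and the dashed lines are 2-fold differences. All 33 intervals cover 0, and 27 lie within the dashed lines.

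Of the beta oxidation enzymes 9 of 10 read lower in mutant hearts by small margins, and 0 were called. Without the joined entry of Acads, their levels lay between 32.4 and 94.5 FPKM in mutant hearts and between 37.0 and 100.5 FPKM in control hearts. The acyl-CoA dehydrogenases open the cycle and divide the work by chain length. Acadvl, for very long chains, read 32.4 FPKM in mutant and 37.0 FPKM in control hearts. Acadl, for long chains, read 66.2 FPKM in mutant and 72.7 FPKM in control hearts. Acadm, the medium-chain enzyme whose window is printed above, read 50.1 FPKM in mutant and 51.1 FPKM in control hearts, 98.0% of the control level. Its 95% interval for the fold ran from 0.665 to 1.44. Of the 33 genes it had the log2 fold change nearest to 0, at -0.03.

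Acads, for short chains, was the 1 member of the role with a higher value in mutant hearts, at 613 FPKM against 559 FPKM in control hearts, but this value can hardly be read as Acads alone. The entry runs on chromosome 5 from 115102922 to 115119346 and joins Acads with Rpl37rt, a retrotransposed copy of a ribosomal protein gene. It stood 12.2-fold above Acadm in mutant and 10.9-fold above Acadm in control hearts. Rpl37, the parent ribosomal gene, read 138 FPKM in mutant and 124 FPKM in control hearts, and near-identical copies may share reads. The level of Acads itself cannot be taken from this table.

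The later steps of the cycle lay close together in level. Echs1, the short-chain enoyl-CoA hydratase, read 75.3 FPKM in mutant and 78.1 FPKM in control hearts. Hadh, the hydroxyacyl-CoA dehydrogenase for shorter chains, read 94.5 FPKM in mutant and 100.5 FPKM in control hearts. Acaa2, the thiolase that releases acetyl-CoA, read 83.3 FPKM in mutant and 88.5 FPKM in control hearts. Eci2, an isomerase for unsaturated chains, read 40.0 FPKM in mutant and 41.1 FPKM in control hearts. All 4 stood between 94.0% and 97.3% of the control level in mutant hearts.

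The trifunctional protein subunits, which share the start region printed above, had nearly equal levels. Hadha read 71.3 FPKM in mutant and 77.3 FPKM in control hearts, and Hadhb read 66.2 FPKM in mutant and 72.9 FPKM in control hearts. The ratio of Hadha to Hadhb was 1.08 in mutant hearts and 1.06 in control hearts. Their log2 fold changes were -0.12 (SE 0.317) and -0.14 (SE 0.291), so both genes of the pair stood at about the same share of the control level, 92.3% and 90.9%.

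The electron transfer flavoprotein genes read lower in mutant hearts in 3 of 3 cases, and 0 were called. Etfb, the beta subunit, had the highest level among genes with an entry of their own, at 242 FPKM in mutant hearts and 249 FPKM in control hearts. Etfa, the alpha subunit that pairs with it in the heterodimer, read 69.1 FPKM in mutant and 77.6 FPKM in control hearts. Unlike the trifunctional pair, these subunits were unequal in transcript level, with Etfb 3.50-fold above Etfa in mutant hearts and 3.22-fold above it in control hearts. Etfdh, the membrane oxidoreductase that hands the electrons on to ubiquinone, read 39.6 FPKM in mutant and 45.5 FPKM in control hearts. Its log2 fold change of -0.20 (SE 0.281, p = 0.477 in the authors' deposited table) was the largest of the role in size.

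The regulators had the lowest median level of the roles, at 2.02 FPKM in mutant and 3.09 FPKM in control hearts. Their spread of fold changes was the widest, from -0.76 to 0.18, with 6 of 7 reading lower in mutant hearts and 0 called. Among the estrogen-related receptors, orphan nuclear receptors that drive mitochondrial genes, Esrra was the highest, at 26.4 FPKM in mutant and 27.6 FPKM in control hearts. Esrrg, known as a regulator of the perinatal switch to oxidative metabolism in mouse heart, read 7.16 FPKM in mutant and 8.90 FPKM in control hearts. Esrrb, known from trophoblast and stem cells, read 0.981 FPKM in mutant and 1.66 FPKM in control hearts. The order Esrra, Esrrg, Esrrb held in both genotypes, with Esrra 3.69-fold above Esrrg in mutant and 3.10-fold above it in control hearts.

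The fold changes of these receptors did not pass. Esrrb, at 59.0% of the control level, had the lowest p of the set (log2 fold change -0.76, SE 0.451, 95% interval -1.64 to 0.12, p = 0.0912 and q = 1.00 in the authors' deposited table). Esrrg had a log2 fold change of -0.31 (SE 0.290, 95% interval -0.88 to 0.25), and Esrra of -0.06 (SE 0.396).

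The PPAR receptors of the set were near the floor of detection in both genotypes. Ppara, the fatty acid receptor of adult heart and liver, read 0.162 FPKM in mutant and 0.180 FPKM in control hearts. Pparg, the receptor of adipocytes, read 0.214 FPKM in mutant and 0.359 FPKM in control hearts. At these levels the intervals were wide: the 95% interval of Pparg ran from -1.95 to 0.46 on the log2 scale, and that of Ppara from -1.21 to 0.91. Ppard, the third receptor of the family and not in the set, read 5.87 FPKM in mutant and 5.83 FPKM in control hearts, 36.2-fold above Ppara in mutant and 32.4-fold above it in control hearts. Ppard was picked out after its values were seen. Rxra, a shared dimer partner picked in the same way, read 9.40 FPKM in mutant and 9.57 FPKM in control hearts. Rxrb, another such partner and also picked later, was higher, at 22.7 FPKM in mutant and 22.6 FPKM in control hearts.

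The coactivators pointed in opposite directions without passing the test. Ppargc1a, which encodes PGC1 alpha, the coactivator that links energy demand to mitochondrial genes, read 6.81 FPKM in mutant and 5.99 FPKM in control hearts (log2 fold change 0.18, SE 0.308, p = 0.550 in the authors' deposited table). Ppargc1b, its close relative, read 2.02 FPKM in mutant and 3.09 FPKM in control hearts. That is 65.6% of the control level, with a log2 fold change of -0.61 (SE 0.365, 95% interval -1.32 to 0.11, p = 0.0955 in the authors' deposited table). The level of Ppargc1a over Ppargc1b was 3.37-fold in mutant hearts and 1.94-fold in control hearts. Esrrb and Ppargc1b were the 2 genes of the set with p under 0.1 in the authors' deposited table, both lower in mutant hearts, where 1.82% of all tested entries met that rule in that direction. In either direction 4.46% of all tested entries met it, and 2.65% did so with a higher value in mutant hearts.

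**Figure D3:**
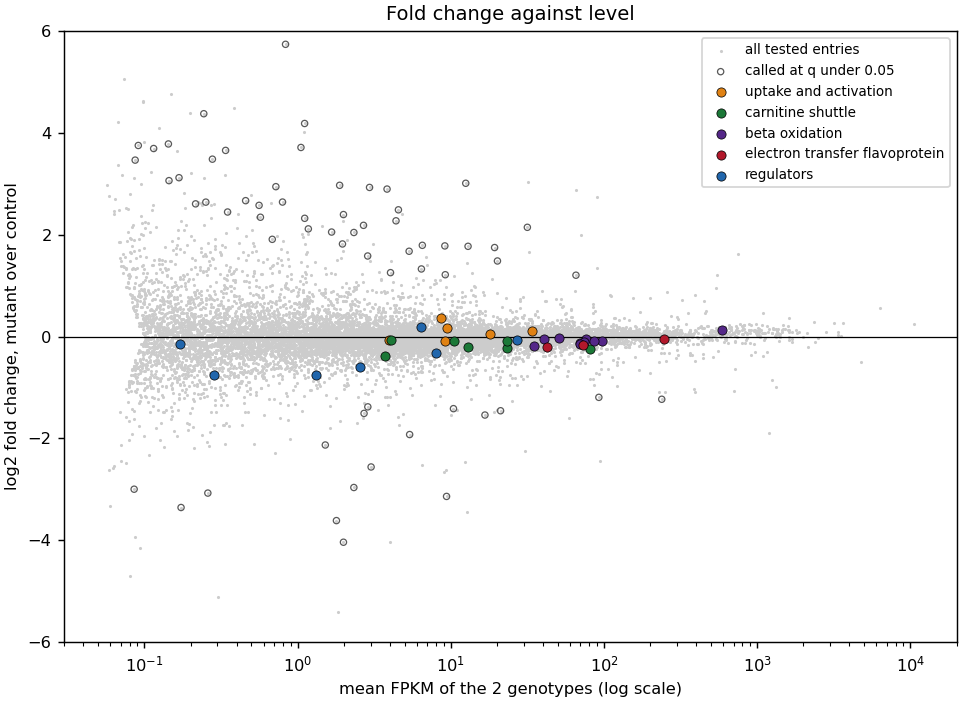
Log2 fold change (mutant over control, vertical axis) against the mean FPKM of both genotypes (horizontal log axis) for 15294 tested entries (grey; 7 lie outside the axes). Open circles are entries called at q under 0.05, and coloured points are the 33 genes by role. The genes of the set lie within the grey band, and their fold changes are widest at low FPKM.

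Fold change size went with level inside the set. The 7 genes under 5 FPKM in both genotypes had a median absolute log2 fold change of 0.39 and a median SE of 0.365. The 8 genes between 5 and 20 FPKM had a median size of 0.18, and the 18 genes at 20 FPKM or more had a median size of 0.11 with a median SE of 0.293. From the lowest to the highest of these classes, 7 of 7, 4 of 8 and 16 of 18 genes read lower in mutant hearts. Among all tested entries of at least 20 FPKM, 47.0% read lower in mutant hearts, a share taken after the data were seen. For the 18 genes at or above 20 FPKM, log2 fold changes ran from -0.24 to 0.13, and Acads, in its joined entry, and Lpl were the 2 above 0. With a minimum of 1 FPKM in either genotype, 25 of 31 genes read lower, against 55.5% of all such entries. With a minimum of 5 FPKM, 20 of 26 read lower, against 54.9%. The share of entries called at q under 0.05 was 0.376%, 0.284% and 0.253% at minimums of 1, 5 and 20 FPKM, and 0 of the 33 genes were among them.

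The precision of the table sets what these values can bear. The 95% interval of 27 of the 33 genes lay within a 2-fold change in either direction. The 6 others were Cd36, Cpt1a, Ppara, Pparg, Ppargc1b and Esrrb. All 10 beta oxidation entries and all 3 flavoprotein entries were among the 27, and for 28 of the 33 genes a drop to under 50.0% of the control level lay outside the interval. Differences of the size seen at most of these genes, around 10%, were not detectable, since the median SE of the set was 0.310 on the log2 scale. Of all tested entries with at least 1 FPKM, 78.8% had an interval within a 2-fold change.

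Other genes of lipid metabolism, 96 in 6 lists, gave 0 calls among 90 tested. An unadjusted p under 0.05 was reached by 3 of the 90 in the authors' deposited table, close to the 3.17% of all tested entries, and they are named for that p alone. Vldlr, the lipoprotein receptor that helps deliver lipid to lipoprotein lipase, read 1.77 FPKM in mutant and 3.00 FPKM in control hearts (log2 fold change -0.76, SE 0.356, p = 0.0333 and q = 1.00 in the authors' deposited table). Abcd2, a peroxisomal transporter of very long chains, read 1.14 FPKM in mutant and 0.549 FPKM in control hearts (log2 fold change 1.06, SE 0.429, p = 0.0138 and q = 0.796 in the authors' deposited table). Scd1, a desaturase of fatty acid synthesis, read 2.53 FPKM in mutant and 1.46 FPKM in control hearts (log2 fold change 0.79, SE 0.368, p = 0.0319 and q = 1.00 in the authors' deposited table).

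Most genes of the oxidation lists also read lower in mutant hearts. Of the auxiliary mitochondrial oxidation genes, 15 of 18 read lower, with a median log2 fold change of -0.13. In that list Eci1, an isomerase related to Eci2, read 41.5 FPKM in mutant and 54.2 FPKM in control hearts. Hsd17b10, a dehydrogenase of branched chains, read 98.5 FPKM in mutant and 90.2 FPKM in control hearts. Of the peroxisomal oxidation genes, 10 of 12 read lower, with a median of -0.09. Of the genes of carnitine synthesis and ketone use, 6 of 8 read lower, with a median of -0.14. Oxct1, the enzyme that activates ketone bodies, read 58.8 FPKM in mutant and 67.3 FPKM in control hearts.

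Fatty acid synthesis had 4 of 12 genes lower and a median of 0.05. The fatty acid binding, lipid droplet and lipolysis list had 10 of 19 lower and a median of -0.02. Fabp3, the heart form of the fatty acid binding proteins, named here after its values were seen, read 149 FPKM in mutant and 163 FPKM in control hearts. Partners of the regulators had 11 of 21 lower and a median of -0.03, with Hif1a, the hypoxia factor, at 50.9 FPKM in mutant and 56.9 FPKM in control hearts, and the mitochondrial carrier Ucp2 at 28.1 FPKM in mutant and 31.0 FPKM in control hearts. The differences between lists were not tested.

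Markers of the cell types that the hearts could hold were read in the same pooled comparison. The marker lists were chosen with earlier results of these data known. Over all tested entries 0.422% were called, 0.305% higher and 0.117% lower. Of 10 tested cardiomyocyte markers 7 read lower in mutant hearts, with a median log2 fold change of -0.07, and 1 was called, the calcium regulator Pln (log2 fold change -1.20, q = 0.0193 in the authors' deposited table). The highest were the myosin light chains, the atrial Myl7 with 7496 FPKM in mutant and 5080 FPKM in control hearts, and the ventricular Myl2 with 3942 FPKM in mutant and 5549 FPKM in control hearts. The other 8 ran up from 12.4 FPKM in mutant and 14.2 FPKM in control hearts. Myh6, Myh7 and Actc1 held too many fragments for a value. Endothelial and endocardial markers read lower in 9 of 9 cases, with a median of -0.18 and 0 called. They summed to 262 FPKM in mutant and 301 FPKM in control hearts, with Plvap at 74.4 FPKM in mutant and 85.7 FPKM in control hearts and Tie1 at 35.5 FPKM in mutant and 39.6 FPKM in control hearts. The other 7 lay between 10.1 and 33.1 FPKM in mutant hearts and between 11.0 and 39.6 FPKM in control hearts.

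Hepatocyte and yolk sac markers, whose cells express many genes of this pathway, read lower in 7 of 8 cases and summed to 48.8 FPKM in mutant and 61.9 FPKM in control hearts. Afp read 27.8 FPKM in mutant and 35.7 FPKM in control hearts, Trf read 8.91 FPKM in mutant and 10.01 FPKM in control hearts, and the other 6 summed to 12.1 FPKM in mutant and 16.2 FPKM in control hearts. Foregut epithelial markers read higher in 7 of 7 cases with 4 called, against 0.305% of all tested entries called higher. They summed to 18.4 FPKM in mutant and 3.89 FPKM in control hearts. This list, too, was chosen with earlier results of these data known. Cldn6 read 7.27 FPKM in mutant and 1.503 FPKM in control hearts, and Epcam read 4.42 FPKM in mutant and 0.971 FPKM in control hearts, with the other 5 under 2 FPKM in both. Erythroid markers had a median of 0.07 over 5 tested, with Alas2 at 141 FPKM in mutant and 126 FPKM in control hearts and Slc4a1 at 86.5 FPKM in mutant and 90.03 FPKM in control hearts, and the other 3 at 9.68 FPKM or more in both. Among macrophage markers C1qb read 1.58 FPKM in mutant and 1.83 FPKM in control hearts, and the rest apart from Lyz2 lay at or below 1.19 FPKM.

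The 4 adipocyte markers with a usable value, all but Cfd, which held too many fragments, summed to 0.0764 FPKM in mutant and 0.120 FPKM in control hearts. Of these Adipoq read 0.0640 FPKM in mutant and 0.110 FPKM in control hearts, Plin1 and Cidec were under 0.1 FPKM in both, and Lep was listed at 0 in control hearts. The part of cell type mixture in the lower readings of the oxidation genes was not tested.

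**Figure D4:**
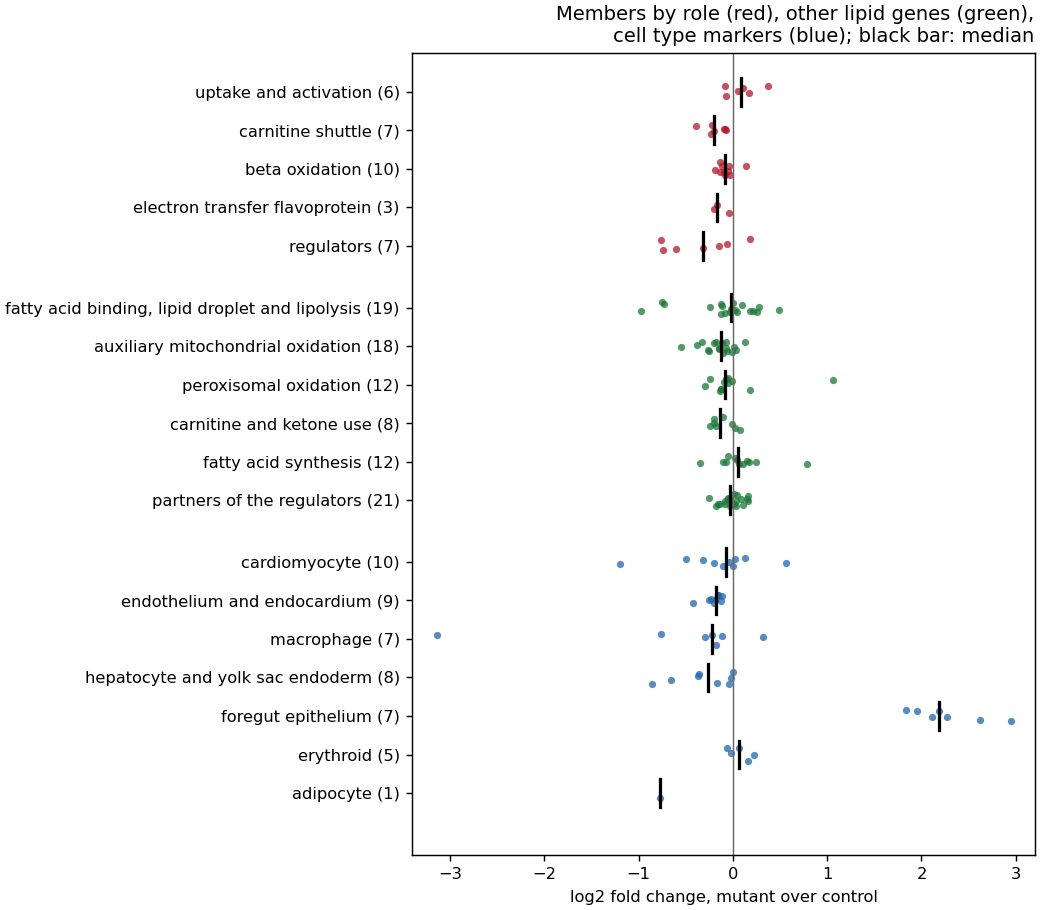
Log2 fold changes (mutant over control, horizontal axis) of the 33 genes by role (red), of other lipid genes (green) and of cell type markers (blue). Each point is a tested gene, black bars are medians, and the number tested is in brackets. The medians of the red and green groups lie between -0.31 and 0.08, and foregut markers lie above 1.8.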

How the data were processed

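RNA sequencing of 6 hearts, 3 mutant and 3 control, was deposited as 1 Cuffdiff table. Per the submitters' processing notes, TopHat2 2.0.8, Bowtie2 2.1.0.0, Cufflinks 2.1.1 and Cuffdiff were used with mm10. Normalisation and dispersion settings are not given in the sources used here. The authors pooled replicates into 1 FPKM value per genotype, per the file headers, so depth per sample is unknown and p-values rest on the authors' fit alone. The authors' deposited p-values matched the normal tail of the deposited test statistic, a score whose sign is opposite to the fold, within 2.8e-06. Adjusting the 15387 p-values by Benjamini-Hochberg returned the deposited q-values. The SE was the size of the log2 fold change divided by that of the statistic. Fold changes were recomputed from the deposited FPKM with no pseudocount and differed from the deposited log2 values by at most 1.4e-05. The authors wrote infinite folds as placeholder numbers, which were not used.

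RefSeq identifiers were matched to symbols through RefSeq and GENCODE tables of the same assembly, naming 23125 of 23290 entries. A single row was taken per gene, tested rows first. The set and all lists were chosen with earlier results of these data known. All 33 genes are named. Of other lipid genes, those with p under 0.05 or else the 2 highest are named, and of marker lists the 2 highest, apart from genes said to be picked later and the called Pln. A gene that this rule would also name is not reported here. Cd68 and Ahsp had no entry. The SE and adjustment steps were run on simulated data as a check of the arithmetic. The simulated statistic was built from the SE, so getting the SE back does not test whether the implied SE is right. Alternatives covered thresholds, low-value filters, pseudocounts, centring, scaling and joined entries. Software was pandas 2.3.3, scipy 1.17.1, numpy 2.4.6 and matplotlib 3.10.9 under Python 3.11.15.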

Additional observations from a re-analysis of the deposited data

How the results depend on the processing

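The count of 0 called genes among the 33, higher or lower, was the same at q under 0.1. Adjustment over entries of at least 1 or 5 FPKM could not raise this count at q under 0.05. An adjusted value is never below its p, and the lowest p of the 33 genes was 0.0912 in the authors' deposited table. A q under 0.01 and removal of the 3 joined entries could not raise a count of 0. Other choices of row could not change it either, since each gene had a single row. At an unadjusted p under 0.1 instead of 0.05, 2 genes passed lower (Esrrb and Ppargc1b) and 0 higher. The median log2 fold change of the set stayed between -0.12 and -0.07 under pseudocounts of 0.1 and 1 FPKM, both filters, centring, scaling to equal sums and removal of joined entries, the last added after the data were seen. The count of genes lower in mutant hearts was 27 of 33 also after centring on the median of tested entries of at least 1 FPKM (-0.02). It was 25 of 31 and 20 of 26 with at least 1 and 5 FPKM, 16 of 18 with at least 20 FPKM and 26 of 30 without joined entries, the last 2 settings added later. The median of the regulators was -0.31 and became -0.16 with a pseudocount of 1 FPKM, which shrinks low genes by construction. The median of the fatty acid binding, lipid droplet and lipolysis list was -0.02 over all tested members and 0.0043 over the 17 with at least 1 FPKM, a reversed sign at values near 0. Every other alternative for these counts and medians kept the direction and moved the value by less than 1.5 times. All 99 alternatives for single genes moved the value by less than its SE. The direction of a single gene could not change under them. A pseudocount keeps the sign of a fold change, and centring moved each gene by only 0.02. No gene lay that close to 0, and the nearest was Acadm at -0.03. No paired analysis was possible because the table holds 1 value per genotype and carries no replicate numbers. For the same reason leaving out a heart could not be run.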
